A study of Mus musculus with 3 samples.

Results

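Uncommitted nephron progenitors, the *Six2* and *Cited1* expressing cells of the cap mesenchyme, were described in 3 droplet single-cell RNA-seq libraries of whole mouse kidneys at E15.5. They were selected by their own marker counts. A kept cell (1000 to 6000 genes detected, with no more than 10% of UMIs mitochondrial) was a member when it held at least 3 unique molecular identifiers (UMIs, each standing for 1 captured transcript) summed over *Six2*, *Cited1*, *Eya1*, *Crym* and *Meox1*, from at least 2 of those genes. It also had to hold 0 UMIs of *Wnt4*, at most 1 UMI over *Lhx1*, *Pax8*, *Jag1*, *Fgf8* and *Cdh6*, and at most 2 UMIs over *Col1a1* and *Col3a1*. The rule found 674 members among 12131 kept cells, of which 408 were in the Enl-WT library, 88 in the Enl-T1 library and 178 in the Enl-T1 TDI-11055 library, called treated Enl-T1 below.

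The study asked how a Wilms tumor mutation of the chromatin reader ENL, encoded by *Mllt1* and called *Enl* in the labels, changes nephrogenesis, and whether an inhibitor of ENL acts on that change. Enl-WT and Enl-T1 kidneys came from embryos with no treatment, and the third library came from Enl-T1 embryos whose mothers were given TDI-11055, a small molecule that occupies the acyl-binding pocket of ENL, at 100 mg/kg by mouth once a day from E10.5 to E14.5. Per the study's methods, Enl-T1 embryos were *Enl* flox-T1/+ and the mutant exon was turned on by *Wt1* GFPCre, a knock-in that puts an EGFP-Cre fusion under the *Wt1* promoter and takes 1 *Wt1* allele out of use. Enl-WT embryos carried the same *Wt1* GFPCre/+ allele, so every library had 1 working copy of *Wt1*, and the mutation was on in both nephron and stromal progenitors of the mutant kidneys. The background was B6, and per the study's methods the *Enl* allele was made in embryonic stem cells from a hybrid of B6 and another strain. A library pooled the kidneys of several embryos whose cells cannot be told apart by embryo. Each group therefore counts as 1 sample, conditions cannot be tested against each other, and p-values are absent. Intervals are exact 95% intervals that cover counting error only.

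The cap mesenchyme is the layer of progenitors that covers the tips of the branching ureteric bud. Six2 holds these cells in the undifferentiated state and Cited1, a transcriptional co-activator, marks the least committed among them. Eya1 is a phosphatase and co-activator that works with SIX-family proteins, and Gdnf made by the cap keeps the bud branching. Wnt9b from the bud starts commitment, upon which cells express *Wnt4*, then *Lhx1*, *Pax8* and *Jag1*, and turn into epithelium. *Hox* genes of the 4 clusters set position along the body axis, and those of paralog groups 10 and 11 are needed for the metanephric kidney.

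The libraries differed in depth and this touches every share of cells with a UMI. Kept cells numbered 5233, 4144 and 2754 in Enl-WT, untreated and treated Enl-T1, and their median depths were 5090, 9391 and 16932 UMIs. Members had medians of 5008, 10668 and 16851 UMIs, for totals of 2246190, 1034555 and 2802048 UMIs. Shares were therefore also taken after each cell had been thinned to 3000 UMIs and the rule applied again. No member barcode was shared between libraries, and each pair of libraries shared 5 to 8 kept barcodes. The members also differed in sex, with 27.5% female cells in Enl-WT, 73.9% in untreated (65 of 88) and 29.8% in treated Enl-T1. The ribosomal protein share of a member's UMIs had medians of 20.3%, 33.1% and 32.0%. The part of sex or of the ribosomal share in the results was not tested, except where values within 1 sex are given.

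Uncommitted progenitors made up a smaller share of the Enl-T1 library than of either other library. They were 7.80% of kept cells in Enl-WT (7.08 to 8.56%), 2.12% in untreated (1.71 to 2.61%) and 6.46% in treated Enl-T1 (5.57 to 7.45%). The Enl-T1 interval does not overlap those of the other libraries. The share of Enl-T1 minus that of Enl-WT was -5.67 percentage points (-6.54 to -4.81), and treated Enl-T1 minus Enl-T1 was 4.34 points (3.33 to 5.41). With every cell at 3000 UMIs the shares were 7.11% (331 of 4656 cells), 1.26% (51 of 4050) and 7.36% (187 of 2542). The order of Enl-WT and treated Enl-T1 turned with depth, so those libraries are not ranked. These shares are set by marker values and are a description, and a share of cells cannot tell a loss of members from a gain of other cells.

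**Figure D1:**
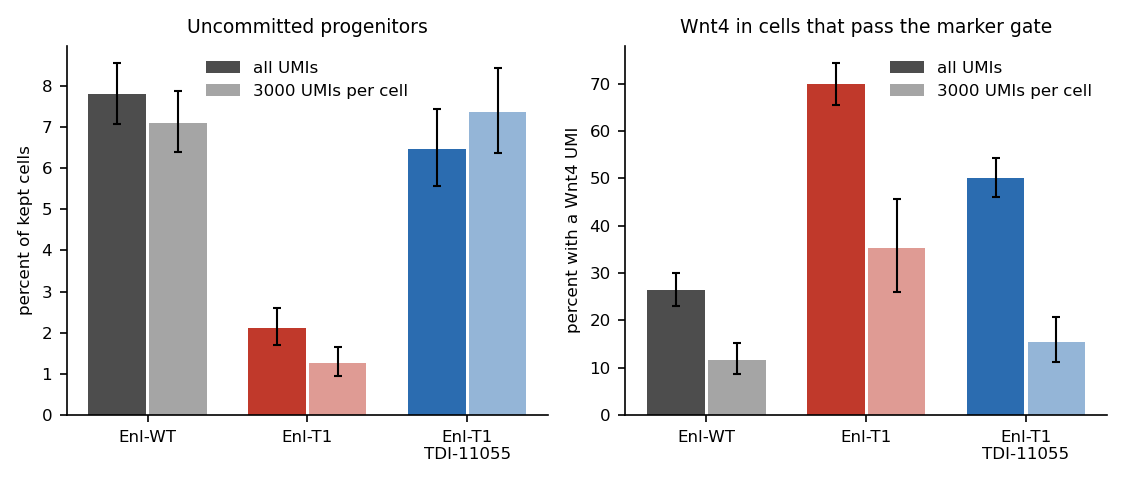
The left panel plots uncommitted progenitors as a percent of kept cells and the right panel plots the percent of cells passing the marker gate that held a *Wnt4* UMI, in each library, with all UMIs (dark) and with 3000 UMIs per cell (light). Bars are 1 library each and error bars are exact 95% binomial intervals. The Enl-T1 library has the lowest bar on the left (2.12%) and the highest on the right (70.0%).

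The condition on *Wnt4*, a signal made by cells that have begun to commit, took out most marker-bearing cells of the Enl-T1 library. Before any exclusion gene was read, 634, 423 and 593 cells met the count of marker UMIs. A *Wnt4* UMI was present in 26.3% of them in Enl-WT, 70.0% in untreated and 50.1% in treated Enl-T1, and members were 64.4%, 20.8% and 30.02% of them. At 3000 UMIs the *Wnt4* shares were 11.7% (8.63 to 15.3%), 35.4% (26.0 to 45.6%) and 15.48% (11.1 to 20.7%). The Enl-T1 share was above the other 2 at both depths, while the gap between Enl-WT and treated Enl-T1 was within counting error only after thinning. Near the cut, 57, 16 and 15 members held exactly 3 marker UMIs and 49, 16 and 16 cells with 2 marker UMIs fell just outside. A further 59, 38 and 52 cells were left out for 1 *Wnt4* UMI, and 31, 16 and 47 for 2 UMIs of the barred commitment genes.

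The 5 genes of the rule lie at *Six2* on chromosome 17 (85684277 to 85688274, minus strand, in mouse build GRCm38), *Cited1* on X (102247381 to 102252181), *Eya1* on 1 (14168954 to 14310235), *Crym* on 7 (120186380 to 120202111) and *Meox1* on 11 (101877510 to 101894374). Their levels are given as CPM, counts in 1000000 UMIs, scaled between libraries by the median ratio over genes. *Six2* was at 195 in Enl-WT, 156 in untreated and 219 in treated Enl-T1. *Cited1* was at 415, 235 and 303 in the same order. *Crym*, which encodes a thyroid hormone binding protein of the cap, was at 276, 167 and 262. All 3 were lowest in Enl-T1. *Eya1* was at 190.1, 195 and 182, nearly level, and the homeobox gene *Meox1* was at 50.3, 84.1 and 92.5, lowest in Enl-WT. Every member was chosen on these genes, so the values describe the selection.

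The promoter of *Six2* is shown because the gene leads the rule and because Meis factors, which read the letters TGACAG, and Pbx factors are cofactors of the *Hox* proteins described further on. It is the RefSeq window from 250 bases before to 50 after the start of transcription in build GRCm38.p6, chr17:85688205-85688504, read on the minus strand from 5′ to 3′, with the TGACAG letters of either strand in capitals. They begin 235 and 162 bases before the start. The letters TGACAG occur in 19.2% of the 32851 mouse promoter windows of that length, and the window holds 37 CG pairs against a median of 7.
Six2: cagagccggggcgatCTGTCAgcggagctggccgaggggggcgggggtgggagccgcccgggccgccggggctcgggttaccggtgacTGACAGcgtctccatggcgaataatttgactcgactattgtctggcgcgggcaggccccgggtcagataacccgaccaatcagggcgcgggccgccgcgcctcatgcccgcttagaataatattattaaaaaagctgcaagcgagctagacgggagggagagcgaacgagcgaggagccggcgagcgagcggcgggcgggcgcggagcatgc
The other letters searched in these windows, given below, were not found there. A match of letters is a description and not a site.

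Members shared the 5 markers unequally. *Six2* and *Cited1* were both detected in 55.4% of Enl-WT members, 53.4% of Enl-T1 members and 73.6% of treated Enl-T1 members. *Cited1* without *Six2* was found in 27.9%, 15.9% and 7.3% of them, and neither in 3.9%, 6.8% and 2.2%. All 5 markers were present in 7.4%, 13.6% and 38.8%, which follows the order of the depths. In members chosen at full depth and then thinned to 3000 UMIs, *Six2* was detected in 49.1%, 29.5% and 41.1%, against 0.6% of endothelial cells in Enl-WT and 0 of 250 and 0 of 100 in the others (upper limits 1.46% and 3.62%). *Meox1* was detected in 15.3%, 21.6% and 20.0% of thinned members, with 9.2% of thinned endothelial cells of Enl-T1 holding it, so it set members apart less sharply there than *Six2* did.

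The label was checked on cap mesenchyme genes that the rule did not read. Of the 20 on the list, 18 reached a level of 10 CPM averaged over the libraries. *Osr1*, a transcription factor of the earliest kidney mesenchyme, was at 75.8 CPM in Enl-WT, 76.8 in untreated and 107 in treated Enl-T1. *Uncx*, a homeobox gene of the cap, was at 267, 247 and 304, and *Robo2*, a Slit receptor, was at 803, 496 and 405. *Pax2*, needed for the mesenchyme to survive, was at 249.9, 301 and 213. The summed level of the whole list was 3274, 2658 and 2500. In progenitors of the same rule with a *Wnt4* UMI it was 2921, 2481 and 2296, so the list hardly set members apart from those cells. It was 1235, 1390 and 1182 in committed cells, 1374, 1240 and 935 in stromal cells and 172, 198 and 110 in endothelial cells. Markers of committed nephron outside the rule summed to 242, 273 and 251 in members, against 1698 in committed cells of Enl-WT.

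**Figure D2:**
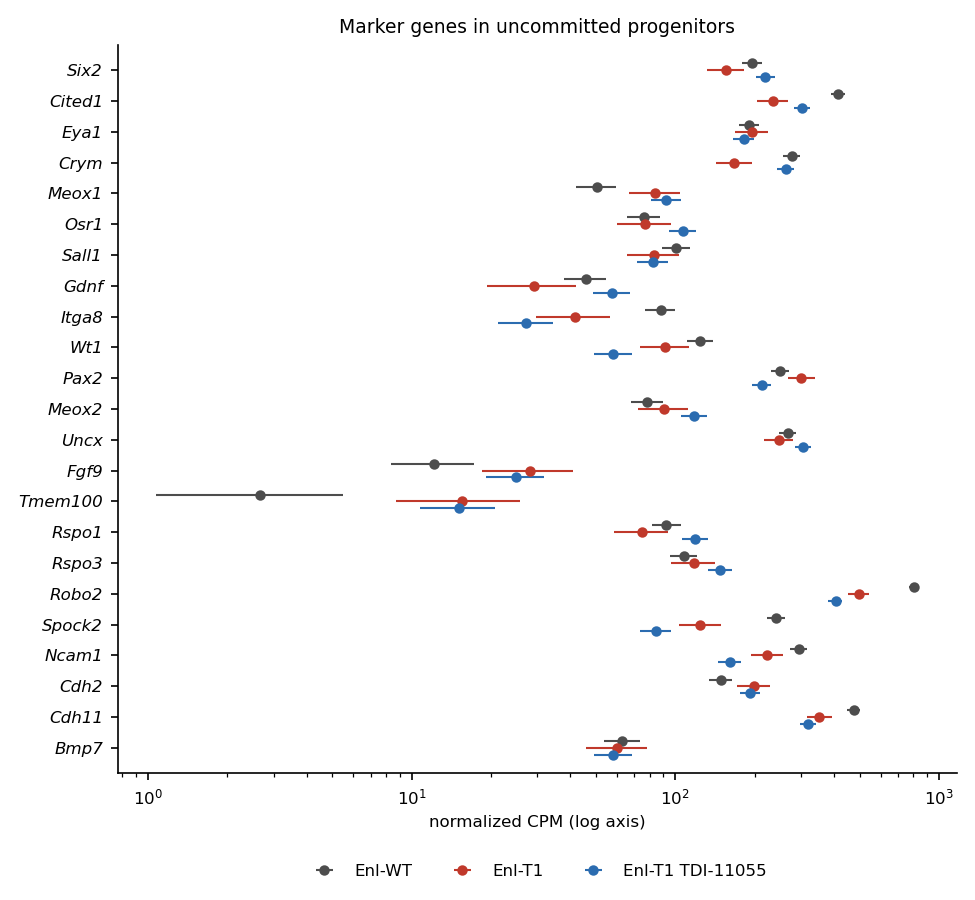
Each point is the level of a gene in uncommitted progenitors of 1 library, in normalized CPM on a log axis, with its exact 95% Poisson interval. *Six2* to *Meox1* are the genes of the rule and the others are cap mesenchyme genes outside it. *Itga8* falls from 88.0 in Enl-WT to 41.5 in Enl-T1, while the 3 points of *Uncx* lie close together, from 247 to 304.

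Markers of other cell types were low but present. Endothelial markers summed to 68.6, 172 and 88.2 CPM, against 4022 in endothelial cells of Enl-WT, and none of the 9 was at 0 in any library. Ureteric markers summed to 159, 307 and 147, and 0, 1 and 2 of 11 were at 0. Stromal markers summed to 180, 164 and 139, against 2805 in stromal cells of Enl-WT, with 2, 3 and 2 of 12 at 0. Hemoglobin and other erythroid genes moved most, at 1748, 406 and 2849. Podocyte markers summed to 61.3, 46.7 and 23.7, and proximal and distal tubule markers to at most 25.9. Immune markers summed to at most 0.8, with 6, 7 and 6 of 7 at 0, and the gene found in Enl-WT and treated Enl-T1 was *Ptprc*, with 2 UMIs in each. The part of other cells or free RNA in the results below was not tested.

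The targeted locus did not set the libraries apart. *Mllt1* (chromosome 17, 56892611 to 56935415) was at 22.9 CPM in Enl-WT, 16.6 in untreated and 21.4 in treated Enl-T1. The ratio of Enl-T1 to Enl-WT was 0.726 (0.391 to 1.28) and that of treated Enl-T1 to Enl-T1 was 1.29 (0.727 to 2.41), both within counting error. Counts per gene take both alleles together, so they do not check the label. *Wt1* (chromosome 2, 105126529 to 105173616), a regulator of the cap and the locus of the Cre, was at 124, 91.3 and 58.3, and its interval left out 1 in both steps (0.735, 0.574 to 0.933, then 0.638, 0.487 to 0.840). Within a sex the first ratio was 0.730 (0.511 to 1.04) in female and 1.09 (0.658 to 1.72) in male members, so it held 1 in both and turned direction in males. The other was 0.683 (0.463 to 1.01) in female and 0.439 (0.268 to 0.748) in male members.

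A gene was called higher or lower between 2 libraries when its ratio was at least 2, or at most 0.5, and the interval left out 1. A call compares 2 libraries, not 2 conditions. Among 8028 genes at 10 or more CPM on average, leaving out the genes of the rule and mitochondrial, ribosomal protein, hemoglobin and sex-linked genes, 371 (4.62%) were higher and 316 (3.94%) lower in Enl-T1 than Enl-WT. Between treated Enl-T1 and Enl-T1, 137 (1.71%) were higher and 175 (2.18%) lower. The split depends on the scaling. Scaled to all UMIs instead, 164 were higher and 972 lower in Enl-T1 than Enl-WT, and 124 higher and 197 lower in treated than in untreated Enl-T1. That scaling shifts all genes by -0.33 on the log2 scale in the first comparison and by -0.02 in the other. Scaled to UMIs outside the mitochondrial, ribosomal and hemoglobin genes, the counts were 351 and 484, then 127 and 318. Across genes, the log2 ratio fell with exonic length (Spearman -0.45 over 8026 genes and -0.39 over 8027), and the 169 genes under 1000 bases had a median log2 ratio of 0.71 for Enl-T1 over Enl-WT.

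*Hox* genes were higher in Enl-T1 members than in Enl-WT members. Of the 39 *Hox* genes, 30 reached the level, and 19 of these were called higher in Enl-T1 and 0 lower, where 4.62% and 3.94% of all genes tested were. A ratio above 1 was found in 29. The list was chosen with earlier results of these data known, so its direction is no independent evidence. Their median log2 ratio was 1.11, beside -0.02 over all genes tested, and in endothelial cells of the same libraries it was 0.65 over the 28 that could be read. The 39 genes summed to 1998 CPM in Enl-WT members and 4103 in Enl-T1 members. The same sums were 2014 and 4538 in *Wnt4*-positive progenitors, 1562 and 3466 in committed cells, and 1141 and 2940 in stromal cells. The higher *Hox* level in Enl-T1 was thus not limited to members. The level was averaged over libraries, so a gene could pass by its Enl-T1 or treated Enl-T1 value alone, as *Hoxb1* did. The number called higher ran from 11 to 20 under the alternative settings, and none was called lower under any of them. In the other comparison, 1 was called higher and 4 lower in treated than in untreated Enl-T1 (1.71% and 2.18% of all genes), with a median log2 ratio of -0.12.

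The 6 *Hoxc* genes at the level were each highest in the Enl-T1 library. *Hoxc6* (chromosome 15, 102998257 to 103011881) was at 73.9 CPM in Enl-WT, 208 in untreated and 77.3 in treated Enl-T1, and its ratios were 2.81 (2.29 to 3.44), then 0.372 (0.305 to 0.456). *Hoxc8* was at 107, 226 and 102, and *Hoxc4* was at 29.3, 68.5 and 32.2. For these 3 genes the untreated and the treated mutant libraries did not overlap in counting error, and the treated one was close to Enl-WT. *Hoxc10*, a paralog group 10 gene, was at 128, 412 and 229, so its level stayed between the other libraries after treatment, and *Hoxc9* was at 93.7, 201 and 107. *Hoxc11* was at 8.76, 45.7 and 33.0. All 6 measured *Hoxc* genes were called higher in Enl-T1 than Enl-WT, and *Hoxc4*, *Hoxc6* and *Hoxc8* were called lower in treated Enl-T1. Scaled to all UMIs, 3 of 6 were called higher in Enl-T1. In male cells 2 of 6 were called higher and 1 lower after treatment, and in female cells 5 higher and 6 lower. The median log2 ratio of the cluster was 1.36, then -0.998. Within female cells the *Hoxc6* ratios were 2.54, then 0.320, and within male cells 2.59, then 0.458. Those of *Hoxc8* were 2.40, then 0.363 in female cells and 1.04, then 0.967 in male cells, and those of *Hoxc4* were 1.96, then 0.380 and 1.28, then 0.980. In male cells alone, with 14 Enl-T1 members, the cluster medians were 0.58 and -0.04. *Hoxc6* was also highest in Enl-T1 in other cells. It was at 86.0, 171 and 88.8 CPM in *Wnt4*-positive progenitors, 16.9, 91.7 and 30.5 in committed cells, and 61.1, 183 and 111 in stromal cells.

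The *Hoxa* genes were higher in the Enl-T1 library and none was called lower in the treated one. *Hoxa9* was at 82.7, 254 and 321 CPM, with ratios of 3.08 (2.55 to 3.71) and 1.26 (1.09 to 1.46). *Hoxa5* was at 54.1, 192 and 232, and *Hoxa7* at 29.3, 82.0 and 138. *Hoxa11*, which the metanephros needs, was at 35.4, 85.1 and 124. For each of these 4 genes the treated mutant library had the highest level. *Hoxa10* was at 155, 242 and 328 with a ratio of 1.56 for Enl-T1 over Enl-WT, under the fold. Of 8 *Hoxa* genes 7 were called higher in Enl-T1 than Enl-WT (median log2 ratio 1.55), and none was called in either direction between the mutant libraries (median 0.31).

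The *Hoxb* and *Hoxd* clusters were mixed. *Hoxb9* was at 219, 471 and 547 CPM, while its neighbor *Hoxb8* was at 78.1, 77.8 and 79.2, nearly level across all 3 libraries. *Hoxb1* (chromosome 11, 96365752 to 96368256) was at 0.762, 10.4 and 69.9, where the first value stands for 2 UMIs. Its ratio of treated Enl-T1 to Enl-T1 was 6.74 (3.58 to 14.3), and it was the only *Hox* gene called higher in the treated library. *Hoxd12* was at 13.7, 57.1 and 39.2 and *Hoxd8* at 12.6, 38.4 and 15.9, which made *Hoxd8* the only *Hoxd* gene called lower after treatment (0.415, 0.259 to 0.665). *Hoxd11*, a kidney paralog group 11 gene, was at 192, 276 and 239, with ratios under the fold in both comparisons. In all, 3 of 9 *Hoxb* and 3 of 7 *Hoxd* genes were called higher in Enl-T1 than Enl-WT. These calls depended on the setting. In female cells 0 of 7 *Hoxd* genes were called higher, with ratios of 1.502 (0.785 to 2.95) for *Hoxd8* and 1.96 (1.09 to 3.67) for *Hoxd12*, against 7.60 and 12.2 in male cells. Only 1 of 9 *Hoxb* genes was called higher at 3000 UMIs, in male cells or scaled to all UMIs.

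**Figure D3:**
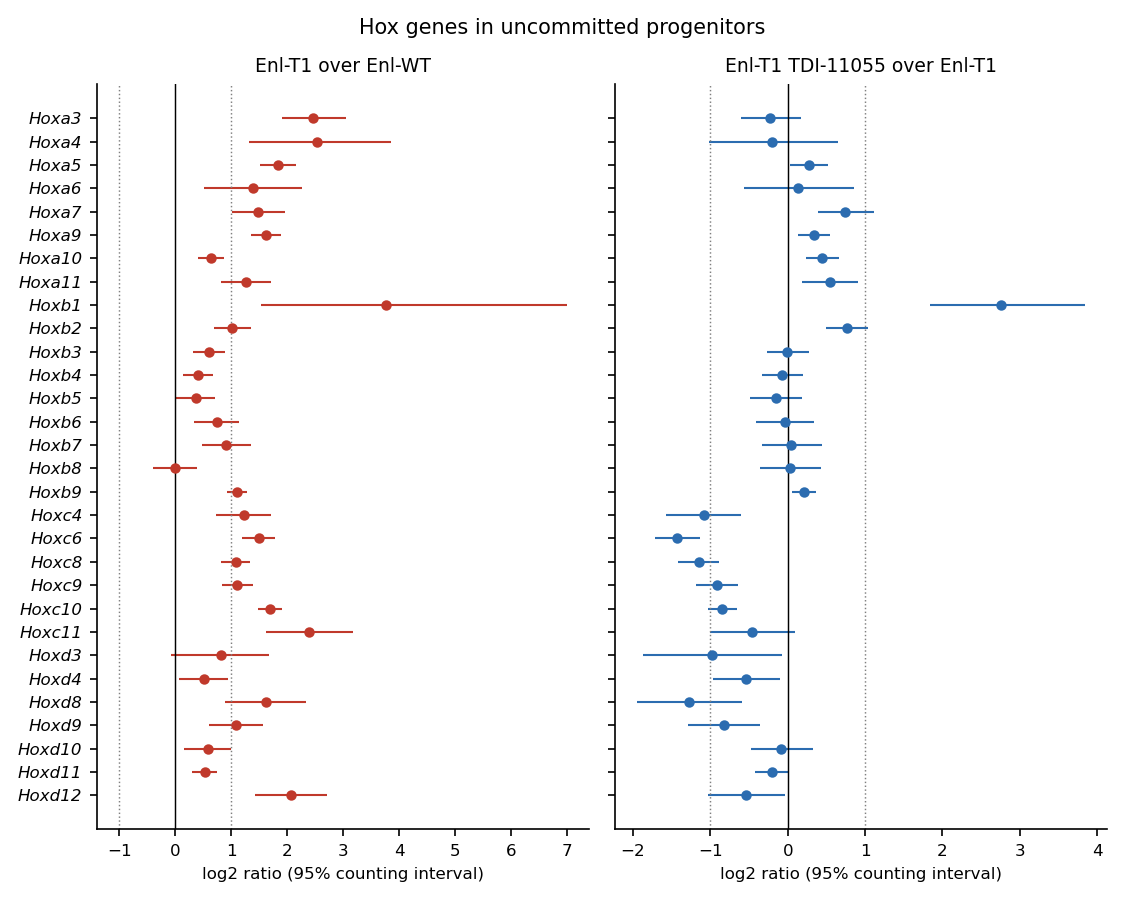
Log2 ratios of the 30 *Hox* genes at 10 or more CPM, Enl-T1 over Enl-WT on the left and treated over untreated Enl-T1 on the right, with 95% counting intervals and dotted lines at a fold of 2. The panels share the Enl-T1 library. On the left 29 of 30 points lie above 0, and on the right every *Hoxc* and *Hoxd* gene lies below 0 while *Hoxb1* lies far above it.

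Members were also read for the share with a *Hox* UMI at equal depth. At 3000 UMIs, *Hoxc6* was detected in 23.4% of Enl-WT members, 34.1% of Enl-T1 members and 14.9% of treated Enl-T1 members, against 0.6%, 1.6% and 0 of 100 endothelial cells (upper limit 3.62%). *Hoxc8* was detected in 30.6%, 42.0% and 17.7%, and *Hoxd12* in 4.2%, 18.2% and 9.7%. In each case the Enl-T1 share was the highest, but its interval overlapped that of Enl-WT for *Hoxc6* (24.3 to 44.97% against 19.2 to 27.9%) and *Hoxc8* (31.6 to 53.05% against 26.1 to 35.5%), and that of treated Enl-T1 for *Hoxd12* (10.8 to 27.8% against 5.76 to 15.1%). The *Hoxc6* and *Hoxc8* shares of treated Enl-T1 were under those of Enl-WT while the CPM were close, so these libraries are not ranked.

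The promoter window of *Hoxb1* is printed for its rise across the libraries, and that of *Hspa1a*, described next, because it leads the genes higher after treatment. The *Hoxb1* window is chr11:96365508-96365807 on the plus strand and holds none of the 4 motifs searched on both strands. These were TAATTA (a core read by homeodomains), the Meis letters TGACAG (see *Six2*), GAANNTTC of heat shock factors, and the TATA box letters TATAAA. The *Hspa1a* window is chr17:34972107-34972406 on the minus strand, and its capitals mark GAANNTTC, the paired core of a heat shock element, 104 bases before the start, and TGACAG 9 bases after it. Both are RefSeq windows of build GRCm38.p6, 5′ to 3′.
Hoxb1: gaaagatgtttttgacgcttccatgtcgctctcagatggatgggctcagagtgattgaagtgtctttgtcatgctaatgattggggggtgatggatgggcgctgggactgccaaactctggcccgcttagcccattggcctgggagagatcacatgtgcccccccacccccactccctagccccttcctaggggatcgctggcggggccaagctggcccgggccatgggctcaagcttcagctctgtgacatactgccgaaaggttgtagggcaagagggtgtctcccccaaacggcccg
Hspa1a: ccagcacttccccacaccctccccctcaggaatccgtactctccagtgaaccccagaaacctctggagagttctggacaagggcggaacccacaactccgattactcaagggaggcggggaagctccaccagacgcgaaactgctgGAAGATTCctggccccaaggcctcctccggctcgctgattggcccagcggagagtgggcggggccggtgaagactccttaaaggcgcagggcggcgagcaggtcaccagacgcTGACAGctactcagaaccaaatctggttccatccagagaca
Of all windows, 7.86% hold GAANNTTC.

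The 10 genes most firmly higher in Enl-T1 than Enl-WT were ranked by the end of the interval nearest to 1. The level was averaged over libraries, so a gene could enter by the libraries where it was high. *Pam16*, *Anks1b* and *Syndig1* entered by their mutant libraries. *Pam16*, a subunit of the motor that pulls proteins into the mitochondrial matrix, was at 0.381 CPM in Enl-WT (1 UMI), 98.6 in untreated and 85.1 in treated Enl-T1, a ratio of 259 (45.3 to 10327). It was found in 1, 56 and 114 member cells. The same ratio was 244 in endothelial cells and 122 in stromal cells, so the difference was not limited to progenitors. *Atp5k*, a small subunit of ATP synthase, was at 79.2, 407 and 444 (ratio 5.13, 4.33 to 6.103), and its ratio in endothelial cells was 3.82. *Rab26os*, a non-coding RNA opposite *Rab26*, was at 9.52, 79.9 and 42.0, with a ratio of 18.9 in endothelial cells. For these 3 genes, then, endothelial cells moved the same way.

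*Crabp1*, which binds retinoic acid in the cytoplasm, was at 1.90 CPM in Enl-WT, 42.5 in untreated and 9.71 in treated Enl-T1. Its ratios were 22.3 (8.83 to 72.4) and 0.228 (0.133 to 0.384), and at 3000 UMIs it was detected in 0 of 385 members (upper limit 0.954%), in 7 of 88 and in 4 of 175. *Cbln2*, a secreted organizer of synapses, was at 0.381, 31.1 and 1.94. Both genes were highest in Enl-T1. Each was under 10 CPM in the other libraries and passed the level by its Enl-T1 value alone, so its rank in either comparison is a description. *Crabp1* was also higher in treated Enl-T1 than in Enl-WT (5.10, 1.92 to 17.1). It moved the same way in endothelial cells, with ratios of 10.2 (4.06 to 32.9), then 0.0431 (0.00107 to 0.253), and stromal cells held it at 148, 206 and 361 CPM, so the higher level in Enl-T1 was not limited to members. *Creb5*, a CREB family transcription factor, was at 11.4, 87.2 and 61.4, a ratio of 7.63 (4.97 to 11.99) between Enl-T1 and Enl-WT, whereas in endothelial cells it was 0.6523 (0.531 to 0.799). The *Creb5* ratio was 6.48 (3.11 to 15.6) in progenitors of the same rule with a *Wnt4* UMI and 1.88 (1.53 to 2.33) in committed cells. Its higher level in Enl-T1 was thus not limited to members. *Anks1b*, a synaptic scaffold, was at 0.381, 30.1 and 26.0 and *Syndig1*, another synapse protein, at 0.762, 18.7 and 14.8. *Hoxaas3*, a non-coding RNA of the *Hoxa* cluster, was at 1.52, 22.8 and 17.1, and *Milr1*, an inhibitory receptor of mast cells, was at 3.43, 34.2 and 10.9. Whether reads were counted by strand was not given in the sources used here, so *Rab26os* and *Hoxaas3* may hold reads of their partner genes.

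Among the 10 genes most firmly lower in Enl-T1 were genes of cell division and *Foxd1*. *Foxd1*, the transcription factor of the stromal progenitors beside the cap, was at 47.2 CPM in Enl-WT, 8.30 in untreated and 11.3 in treated Enl-T1 (ratio 0.176, 0.0742 to 0.357). At 3000 UMIs a *Foxd1* UMI was found in 15.6%, 4.5% and 2.3% of members, against 1.8%, 1.2% and 2.0% of endothelial cells. The treated Enl-T1 share was therefore at background. The interval of the untreated Enl-T1 share (1.25 to 11.2%) also overlapped that of its endothelial cells (0.248 to 3.47%). *Mki67*, the proliferation antigen, was at 334, 99.6 and 78.5 (ratio 0.298, 0.239 to 0.368), and *Cdca2*, a mitotic phosphatase regulator, was at 46.1, 11.4 and 24.1. *Slc12a2*, a sodium, potassium and chloride cotransporter, was at 358, 119 and 130.1. *Dst*, which links cytoskeletal filaments, was at 416, 159.8 and 127, and *Ankrd11*, a chromatin cofactor, was at 539, 214 and 208. Those 3 were low in both mutant libraries. Their ratios of Enl-T1 to Enl-WT were 0.557, 0.759 and 0.443 in endothelial cells and 0.488, 0.644 and 0.393 in stromal cells. Their lower level was thus not limited to members. *Abl2*, *Zfpm1*, *Plagl2* and *Cntfr* had Enl-T1 levels between 5.19 and 16.6. In endothelial cells their ratios of Enl-T1 to Enl-WT were 0.456, 0.593, 0.813 and 0.378, in that order. The endothelial intervals of *Plagl2* and *Cntfr* held 1. When the rule was applied to cells at 3000 UMIs, *Mki67* (log2 ratio -0.96), *Foxd1* (-1.50), *Abl2* (-1.53), *Zfpm1* (-2.46), *Cdca2* (-1.25), *Cntfr* (-1.19), *Anks1b* (3.998) and *Hoxaas3* (2.998) kept their direction and were no longer called. All but *Mki67* stayed past the fold with an interval that held 1.

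The 10 genes most firmly higher in treated than in untreated Enl-T1 were led by *Hspa1a*, then *Ebf2* and *Hoxb1*. *Hspa1a*, an inducible Hsp70, was at 2.67 CPM in Enl-WT, 4.15 in untreated and 65.3 in treated Enl-T1, a ratio of 15.7 (6.03 to 58.4) that was 8.53 in endothelial cells. Its near-identical copy *Hspa1b* was at 3.43, 5.19 and 38.5, and reads cannot be split between the pair with certainty. *Ubb*, a polyubiquitin gene, was at 1052, 1214 and 2459 (ratio 2.03 in members and 1.67 in endothelial cells). These 3 genes were also higher in endothelial cells of the treated library. *Cdkn1c* (chromosome 7, 143458339 to 143461050), an imprinted inhibitor of the cell cycle, was at 787, 369 and 877, so that Enl-T1 was the low library. Its ratio was 0.469 (0.418 to 0.525) for Enl-T1 over Enl-WT and 2.37 (2.12 to 2.66) for treated over untreated Enl-T1, while in endothelial cells the latter was 1.02. In progenitors of the same rule with a *Wnt4* UMI these ratios were 0.629 (0.529 to 0.747) and 2.64 (2.30 to 3.04), so members were not alone in this. The ratio between the mutant libraries was 2.199 in female and 2.997 in male members.

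*Ebf2*, a helix-loop-helix transcription factor, was not detected in Enl-WT members, was at 3.11 CPM in Enl-T1 (1 cell) and was at 39.2 in treated Enl-T1 (27 cells), a ratio of 12.6 (4.19 to 62.1). It passed the level by its treated Enl-T1 value alone. *Ckb*, a creatine kinase, was at 62.5, 22.8 and 78.1, lowest in Enl-T1 as *Cdkn1c* was. *Aard* was at 10.3, 6.23 and 32.2, *Tnni1*, a troponin, at 7.62, 5.19 and 26.0, and *Cap1*, an actin regulator, at 33.5, 20.8 and 60.2.

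Of the 10 genes most firmly lower in treated than in untreated Enl-T1, *Cbln2*, *Crabp1* and *Hoxc6* are given above. *Mecom*, a zinc finger transcription factor, was at 14.1 CPM in Enl-WT, 63.3 in untreated and 20.6 in treated Enl-T1 (ratio 0.325). *S100a6*, a calcium binding protein, was at 6.48, 31.1 and 8.16. Both peaked in Enl-T1. *Flt1*, a VEGF receptor of endothelium, was at 8.76, 35.3 and 3.11, but 28 of its 34 UMIs in Enl-T1 came from 1 cell, and 18 of the 24 *Cdh5* UMIs in Enl-T1 came from 1 cell. These values rest on single barcodes that also passed the marker rule. With members of the endothelial gate left out, an alternative chosen after the values were seen, the *Cdh5* log2 ratio was -1.48 and was no longer called. *Ppargc1b*, *Usp31* and *Hist2h2bb* were at 19.7, 28.0 and 27.0 in Enl-T1 and at 3.50, 6.22 and 6.60 in the treated library. At 3000 UMIs the log2 ratio of *Crabp1* was -1.10 and that of *Mecom* -1.16, neither called. Nor were *Hspa1b* (2.25), *Aard* (1.41), *Tnni1* (0.33), *Ubb* (0.996), or *Ppargc1b*, *Usp31* and *Hist2h2bb* (-1.84 each). Apart from *Tnni1* and *Ubb*, these stayed past the fold with an interval that held 1.

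**Figure D4:**
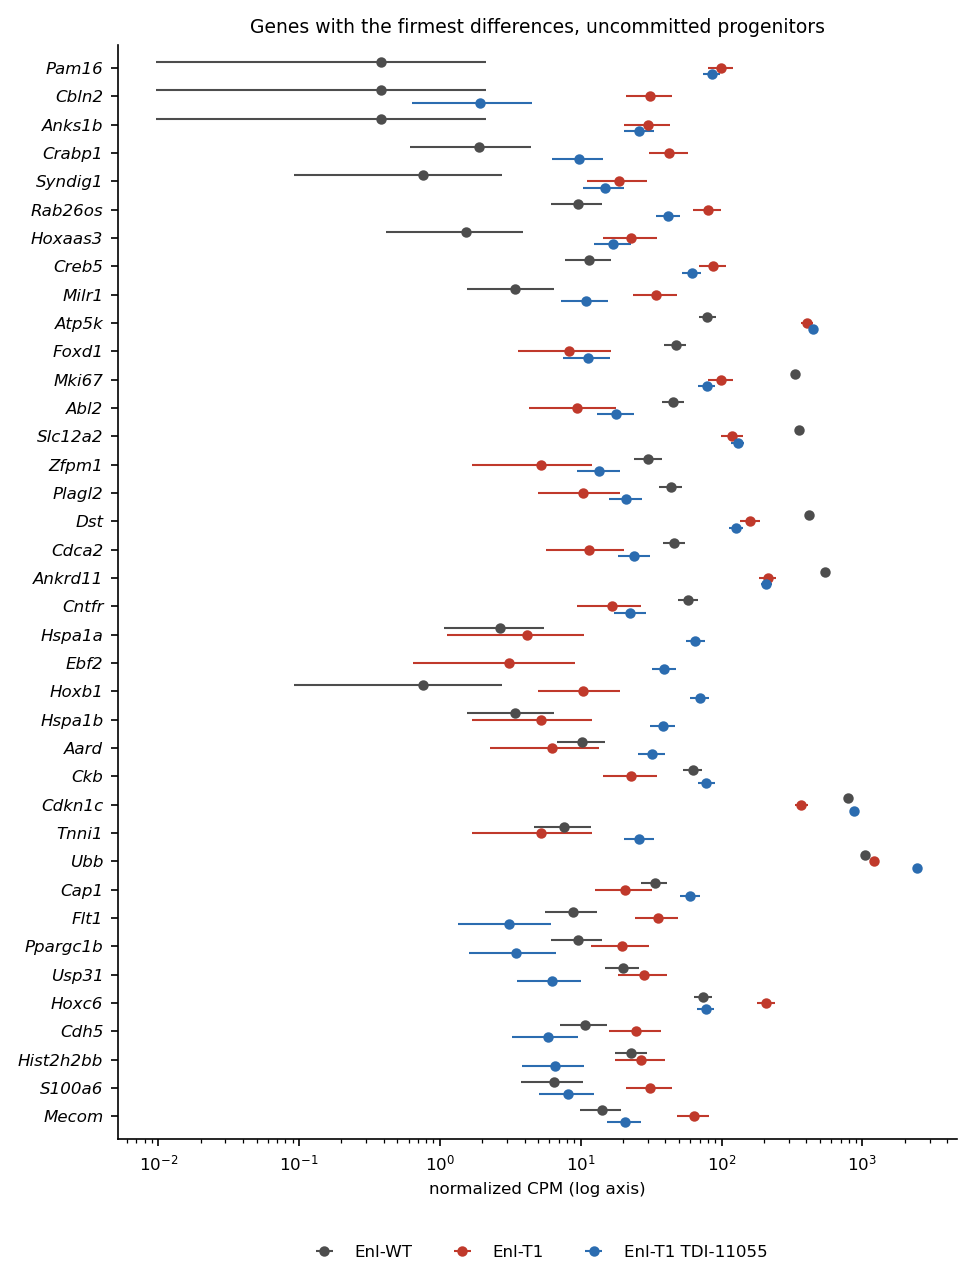
Levels of the genes with the firmest differences in uncommitted progenitors, in normalized CPM on a log axis, 1 point per library with its exact 95% Poisson interval; *Ebf2* had 0 UMIs in Enl-WT and no point is drawn. *Pam16* sits near 0.381 in Enl-WT and at 98.6 and 85.1 in the mutant libraries, and *Cbln2*, *Crabp1* and *Hoxc6* are highest in Enl-T1.

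Genes of the electron transport chain, which make ATP in mitochondria, were higher in Enl-T1 members. Of 80 on the list, 77 reached the level and 29 of them were called higher in Enl-T1 than Enl-WT, 0 lower (4.62% and 3.94% of all genes tested), with a median log2 ratio of 0.65 in members and 0.54 in endothelial cells. Scaled to all UMIs, 15 of 77 were called higher and the median was 0.32. *Cox6c* was at 298 CPM in Enl-WT, 910.1 in untreated and 858 in treated Enl-T1, and *Cox8a* at 618, 1481 and 1459.8. *Atp5mpl*, a small subunit of ATP synthase, was at 122, 543 and 506. None of the 77 was called between the mutant libraries (median log2 ratio 0.16). Ribosomal protein genes followed the same order, with 35 of 81 called higher in Enl-T1 and 0 lower (median 0.92 in members, 0.85 in endothelial cells), or 23 scaled to all UMIs (median 0.60), as in *Rpl41* at 1733, 7971 and 7833. The ribosomal genes were read apart from the 8028. Short genes as a whole also had higher ratios, as given above, and the part of gene length in either list was not tested.

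Proliferation gave no single direction. Of 20 DNA replication genes 0 were called in either comparison, and *Pcna*, the replication clamp, was at 164, 170.1 and 179 CPM. Of 18 mitosis genes only *Mki67* was called, lower in Enl-T1 than Enl-WT (3.94% of all genes tested were), and *Top2a*, the mitotic topoisomerase, was at 447, 264 and 201. For Enl-T1 over Enl-WT the mitosis list had a median log2 ratio of -0.36, with 4 of 18 genes above 0. Its median in endothelial cells was -0.57, so the lower level was not limited to members. The replication list had a median of 0.003, with 10 of 20 above 0. A member counted as cycling when at least 2 of 5 mitotic genes had a UMI. At 3000 UMIs the shares were 30.9%, 23.9% and 31.4%, while with all UMIs they were 36.03%, 45.5% and 50.6%, so their order followed the depth. *Mki67* was detected in 31.7%, 13.6% and 12% of thinned members and in 50.8%, 22% and 12% of thinned endothelial cells, and its ratio of Enl-T1 to Enl-WT was 0.411 in endothelial cells. The lower *Mki67* was thus not limited to progenitors.

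Signals of the niche were given by list. Of 17 BMP and TGF-beta pathway genes at the level, 4 were called higher in Enl-T1 than Enl-WT and 2 lower in treated than in untreated Enl-T1, where 4.62% and 2.18% of all genes were. The list as a whole did not rise in Enl-T1, with a median log2 ratio of -0.06 and 8 of 17 genes above 0. Only 1 was called higher, and 2 lower, in Enl-T1 when scaled to all UMIs, 1 was called higher with a mitochondrial limit of 5%, and 0 were called lower after treatment at 3000 UMIs. The BMP target *Id1*, an inhibitor of helix-loop-helix factors, was at 43.1, 104 and 48.6 CPM, *Bmpr1b*, a type I receptor, was at 5.71, 27.0 and 10.49, and the ligand *Bmp4* was at 17.5, 39.4 and 50.9. *Id1* and *Bmpr1b* were thus highest in Enl-T1, whereas *Bmp4* was highest in the treated library. Of 14 FGF pathway genes, 1 was called higher and 2 lower in Enl-T1 than Enl-WT, where 4.62% and 3.94% of all genes tested were. The ligand *Fgf9*, which keeps progenitors alive, was at 12.2, 28.0 and 24.9, and *Spry4*, a feedback inhibitor, was at 16, 6.23 and 15.1. Of 16 Wnt genes 0 were called higher and only *Tcf7l1*, a repressor of Wnt targets, was called lower, at 177, 65.4 and 79.2. Of 6 Notch genes 0 were called. Among 13 Hippo genes the co-activator *Wwtr1* (43.1, 20.8 and 19.8) and the cadherin *Fat4* (50.7, 23.9 and 21.4) were called lower in Enl-T1 than Enl-WT. Over all genes tested, 3.94% were called lower.

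Genes through which the cap and the bud signal to each other did not share 1 order. *Gdnf* was at 45.7 CPM in Enl-WT, 29.1 in untreated and 57.5 in treated Enl-T1, and its ratios of 0.636 (0.405 to 0.965) and 1.98 (1.31 to 3.08) stayed under the fold. Thinned members held a *Gdnf* UMI in 15.6%, 3.4% and 9.1%. *Itga8*, an integrin needed for full *Gdnf* expression, was at 88.0, 41.5 and 27.2 (ratio 0.472, 0.328 to 0.662), lowest in the treated library. *Gfra1*, the co-receptor of Gdnf, was at 96.4, 47.7 and 55.9. *Tmem100*, a BMP-responsive membrane protein, was at 2.67, 15.6 and 15.1. Of the 18 cap genes outside the rule, *Fgf9* and *Tmem100* were called higher and *Itga8* lower in Enl-T1 than Enl-WT, and 0 were called between the mutant libraries (median log2 ratios -0.20 and -0.05). Over all genes tested, 4.62% were called higher and 3.94% lower in Enl-T1 than Enl-WT.

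Set beside their nearest neighbors within the same library, uncommitted progenitors differed from *Wnt4*-positive progenitors (104, 108 and 125 cells with marker UMIs and *Wnt4*) in few genes. The groups were split on *Wnt4* alone, with the same limit on barred genes in both, so these ratios describe that split. Detection of *Wnt4* depended on depth, as given above, so members may include cells whose *Wnt4* was missed. A gene also had to pass in every library, and Enl-T1 had 88 members, so a small number of genes does not show that the groups are alike. Of 7123 genes read, 4 were past a fold of 2 upward in every library. *Rspo3*, an enhancer of Wnt signaling, had ratios of 2.43 in Enl-WT, 2.21 in untreated and 2.65 in treated Enl-T1. *Ocm*, a calcium binding protein, had ratios of 2.85, 3.09 and 6.05, and *Stk32a* and *Nrk*, both kinases, were the other two. Another 4 were lower in every library. *Aldh1a2*, which makes retinoic acid, had ratios of 0.21, 0.34 and 0.31, and *Dach1*, a cofactor of SIX-family proteins, had ratios of 0.42, 0.46 and 0.43. *Greb1* and *C1qtnf12* completed them. *Cdkn1c* was higher in uncommitted cells by ratios of 2.33, 1.76 and 1.56, and *Ccnd1*, a cyclin of early division, was lower at 0.69, 0.58 and 0.73.

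Against committed nephron cells (631, 862 and 752 cells), 115 of 7660 genes were higher and 448 lower in uncommitted cells of all 3 libraries. Committed cells were gated on *Wnt4* and on the barred genes, so these ratios describe that split. *Rspo3* had ratios of 28.4, 7.69 and 13.8, *Osr1* of 14.46, 10.2 and 6.44, and *Robo2* of 11.3, 4.53 and 4.64. In each of these genes the gap was widest in Enl-WT. Against stromal cells 220 of 7591 genes were higher and 522 lower in every library, and against endothelial cells 339 and 898 of 7546.

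**Figure D5:**
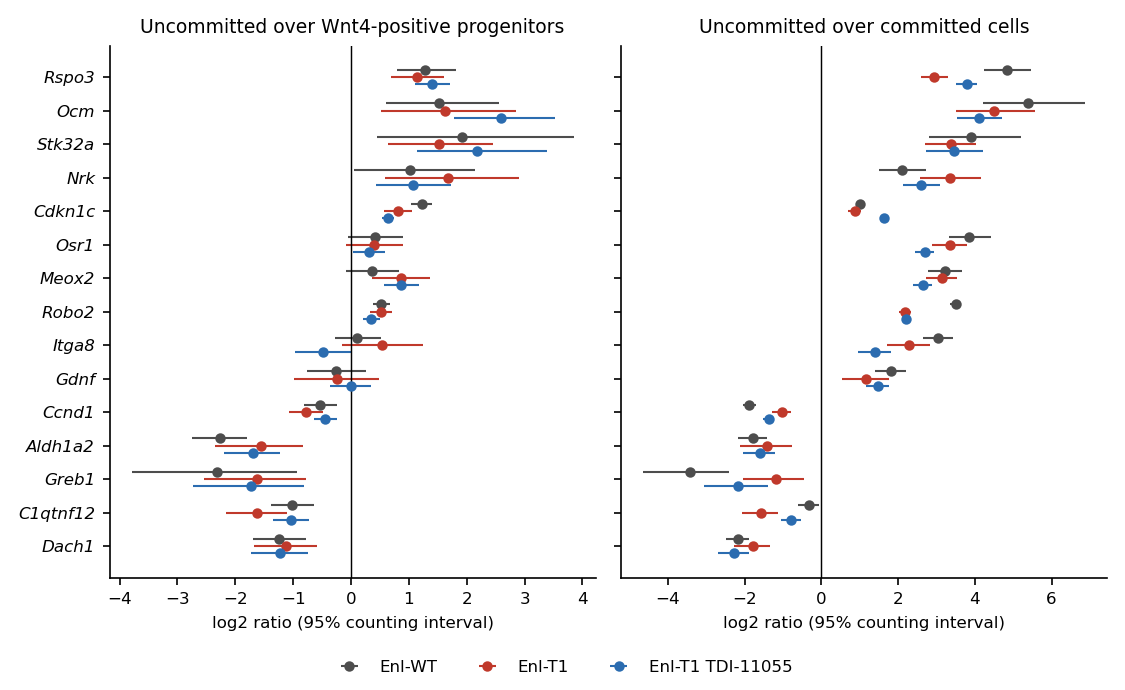
Log2 ratios of uncommitted progenitors over *Wnt4*-positive progenitors (left) and over committed nephron cells (right), taken within each library, with 95% counting intervals. *Rspo3*, *Ocm*, *Stk32a* and *Nrk* lie above 0 and *Aldh1a2*, *Greb1*, *C1qtnf12* and *Dach1* below 0 on the left in all 3 libraries.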

How the data were processed

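The deposited files were raw UMI counts per gene and barcode of 3 libraries, which the authors had made with 10x 3′ chemistry. The submitters' processing notes name Cell Ranger 6.1.2 and mm10. Each matrix held 32285 genes. The members and gene lists were chosen with earlier results of these data known. Counts of members were summed per library and scaled by median of ratios. Levels carry exact Poisson intervals, ratios exact conditional intervals and shares Clopper-Pearson intervals (95%). Intervals of a difference of shares were built from both, and all cover counting error only. The groups were 1 library each, so there was no test. Depth was 37221435, 63336586 and 76619303 UMIs. Doublets were not removed. As an alternative, Scrublet in scanpy 1.11.5 marked 123, 41 and 2 kept cells. Its 2 cells in treated Enl-T1 (0.0726%) showed that it had not worked there, so the 61 with the highest scores were taken, and 8, 0 and 1 members were lost.

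Endothelial, stromal, committed and *Wnt4*-positive cells were gated by marker UMIs. Cells with *Xist* or Y-linked UMIs alone were called female or male. Genes were named by a rule. It took, for each comparison and direction, the 10 past a fold of 2 whose interval end nearest to 1 was farthest from it, without unnamed gene models, plus members of 37 gene lists. Levels under 10 CPM averaged over libraries were left out. Ratios were checked on simulated counts. Positions are from a GRCm38 annotation and promoters from RefSeq GRCm38.p6, where 6 of 9 genes looked up had a window, and *Hoxc6*, *Hoxc8* and *Cdkn1c* did not. Python 3.11.15, numpy 2.4.6, scipy 1.17.1 and pandas 2.3.3 were used.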

Additional observations from a re-analysis of the deposited data

Results flagged for a closer look

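*Creb5* moved in opposite directions in uncommitted progenitors and endothelial cells between Enl-T1 and Enl-WT, with a ratio of 7.63 in progenitors and 0.6523 in endothelial cells. *Hoxb3* did the same, with ratios of 1.52 and 0.742. Each pair rests on 1 library per group, and the difference between the cell types was not tested. *Creb5* was also higher in Enl-T1 than Enl-WT in *Wnt4*-positive progenitors (ratio 6.48) and in committed cells (1.88).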

How the results depend on the processing

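No paired analysis was possible because each group was 1 library, and for the same reason no replicate could be left out. The share of members moved beyond its counting interval under these settings: to 5.31% in Enl-WT and 1.64% in Enl-T1 with at least 1 *Six2* UMI, to 5.64%, 1.62% and 5.48% (Enl-WT, Enl-T1, treated Enl-T1) with at least 5 marker UMIs, to 1.26% in Enl-T1 at 3000 UMIs, to 5.48% in treated Enl-T1 among female cells, to 4.74% in Enl-WT with a mitochondrial limit of 5%, to 9.78%, 4.73% and 11% without the condition on *Wnt4*, and to 5.46% in treated Enl-T1 without the upper limit on genes. Enl-T1 had the lowest share under each of these settings. Genes called in Enl-T1 over Enl-WT numbered 164 higher and 972 lower scaled to all UMIs, 484 lower scaled without mitochondrial, ribosomal and hemoglobin genes, 145 higher and 55 lower with a level of 50 CPM, and 596 higher with no level filter. For treated over untreated Enl-T1 they numbered 318 lower under that other scaling, 13 and 8 with a level of 50 CPM, 63 and 88 without the condition on *Wnt4*, 386 lower with no level filter and 291 lower in non-cycling members. A level filter changes how many genes are tested. The cause of the other shifts was not tested.

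Short marker lists turned direction. The endothelial median log2 ratio of treated over untreated Enl-T1 became 0.48 at 3000 UMIs, 2.47 in female cells, 1.60 in male cells and 0.014 with the mitochondrial limit of 5%, and that of Enl-T1 over Enl-WT became -1.48, -0.20 and -0.87 in the last 3 settings. The ureteric median of Enl-T1 over Enl-WT became -1.20 with the 5% limit and -0.12 without the condition on *Wnt4*, and the erythroid median of treated over untreated Enl-T1 became -0.019 in female cells. *Cdh5* turned to 0.78 in female cells. Of the other values of named genes, 251 of 260 for Enl-T1 over Enl-WT and 237 of 267 for treated over untreated Enl-T1 kept their call. Depth limits genes under 10 CPM, where a few UMIs in 88 Enl-T1 cells set the value.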

Other observations

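Gene groups outside the kidney lists also differed between libraries in uncommitted progenitors. Of 27 chromatin regulators at the level, 5 were called lower in Enl-T1 than Enl-WT and 0 higher (median log2 ratio -0.43), where 3.94% and 4.62% of all genes tested were. Scaled to all UMIs 10 were called lower (median -0.75), and 2 of 28 were with a mitochondrial limit of 5%. In endothelial cells of the same libraries the median log2 ratio of the list was -0.36, so its lower level was not limited to members. Across all genes the log2 ratio fell with exonic length, as given above, and the part of gene length here was not tested. *Smarca4*, a remodeling ATPase, was at 253, 121 and 145 CPM in Enl-WT, untreated and treated Enl-T1, and *Chd7*, another remodeler, was at 119, 44.6 and 65.6. Of 21 genes for partners of ENL none was called in either comparison (median -0.46, then -0.19 in members, and -0.34, then -0.37 in endothelial cells). Among 17 imprinted genes, *Kcnq1ot1*, the non-coding RNA of the *Cdkn1c* domain, was at 1154, 523 and 447, and *Nnat* was at 179, 106 and 237. *Kcnq1ot1* was low in both mutant libraries, whereas *Cdkn1c* was low in Enl-T1 alone.

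Of 18 glycolysis genes, 2 were called higher and 1 lower in Enl-T1 than Enl-WT, where 4.62% and 3.94% of all genes tested were. *Gapdh* was at 426, 1240.1 and 1877, with a ratio of Enl-T1 to Enl-WT of 2.91 in members and 2.48 in endothelial cells, and *Hk2*, the first enzyme of the pathway, was at 17.5, 70.6 and 52.4, with a ratio of 4.03 in members and 0.785 in endothelial cells. Of 17 immediate early genes, *Fos* was called higher in Enl-T1 than Enl-WT and lower after treatment, at 79.2, 166 and 76.1. *Bcl2*, which holds back apoptosis, was at 162, 68.5 and 76.9. *Meis1*, a cofactor of *Hox* proteins, was at 92.2, 93.4 and 43.5, and *Six4* was at 23.6, 39.4 and 16.7, so both were lowest in the treated library.

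Among 7 genes of retinoic acid handling, 7 Meis and Pbx genes, 14 genes of progenitor age and growth, 20 Wilms tumor genes, 19 adhesion genes, 7 Sox and SIX-family genes, 12 apoptosis genes and 6 GDNF/RET genes at the level, at most 2 of a list were called in 1 direction in either comparison. Over all genes tested, 4.62% were called higher and 3.94% lower in the first comparison, and 1.71% and 2.18% in the other. Counts this small on short lists were not read as results about their genes.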
